A study of Mus musculus with 8 samples.

Results

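Glutamate receptors and the proteins that anchor them at excitatory synapses were examined in the cortex of mouse embryos without Ptbp2. The list held 36 genes: 4 AMPA, 5 kainate, 7 NMDA, 1 delta and 6 metabotropic receptor genes, 4 genes of transmembrane AMPA receptor regulatory proteins (TARPs), and 9 scaffold genes. Probe sets of an Affymetrix mouse exon array were assigned to a gene where the annotation gave them exactly 1 symbol. This gave 773 probe sets for 35 of the 36 genes, of 303629 probe sets with 1 symbol in the series. After a filter on low signal (mean log2 signal of at least 6.84, the median over all probe sets), 676 remained. A gene was compared if at least 4 of its probe sets remained, and its level was their median on each array, which left 33 of the listed genes among 12960 genes in all. Grm5 and Cacng3 had only 2 named probe sets each, and Cacng8 had none.

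RNA came from the cortex at embryonic day 18.5, in 4 Ptbp2 KO samples and 4 wild type samples, each on 1 array. Both groups had a mixed CD1 and C57BL/6 background. The sources used here give neither the allele, nor the way the gene was removed, nor the sex of the embryos. They also do not say whether the samples of a group came from separate embryos, so p-values measure the spread between these samples, which may be technical.

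Glutamate is the main excitatory transmitter of the cortex. AMPA receptors carry most of the fast current, NMDA receptors pass calcium when transmitter release and depolarization coincide, kainate receptors tune release and excitability, and metabotropic receptors signal through G proteins. TARPs bring AMPA receptors to the membrane, while Grip, Homer and Shank proteins hold receptors in the postsynaptic density. Many of these transcripts are alternatively spliced, and Ptbp2, the neuronal polypyrimidine tract binding protein, represses alternative exons in developing neurons.

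The labels were checked with the targeted gene. Ptbp2 had log2 signals of 6.24, 5.80, 5.54 and 6.22 in Ptbp2 KO cortex, against 11.40, 11.15, 11.08 and 11.16 in wild type cortex. The groups were far apart (log2 difference -5.25, SE 0.14, limma adjusted p = 1.7e-12), and the Ptbp2 KO level lay below the signal filter, so the size of the fall is not exact. Array medians lay between 6.82 and 6.93. On the first pair of principal components of all gene levels, wild type 3 and Ptbp2 KO 3 lay farthest out, followed by wild type 1. Cortical identity was checked with 8 genes of glutamatergic cortical neurons, among them Neurod6, Tbr1, Fezf2 and Emx1. Their mean log2 level was 10.05 to 10.23 in Ptbp2 KO cortex and 10.03 to 10.30 in wild type cortex, so the groups overlapped. Of the 8 genes, 1 had groups that did not overlap, as held for 3.65% of all genes. It was Slc17a7, with levels up to 9.13 in Ptbp2 KO cortex and from 9.24 in wild type cortex.

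No glutamate receptor or scaffold gene passed the test for a change in level. With limma and Benjamini-Hochberg adjustment over all genes, 0 of the 33 tested members passed an adjusted p of 0.05, against 0.116% of all 12960 genes (0.0540% higher and 0.0617% lower in Ptbp2 KO cortex). Without adjustment, 4 members (12.1%) had p under 0.05, Gria3, Grik3, Grm4 and Shank1, all lower in Ptbp2 KO cortex. Of all genes, 6.49% met that threshold and 3.79% met it on the lower side. This count of 4 moved with the arrays used: it was 0 without Ptbp2 KO 3, 1 without wild type 1, and 3 without wild type 2. It was 2 without Ptbp2 KO 1, 2 or 4 or wild type 3 or 4. The differences stayed negative without Ptbp2 KO 3, at -0.24 (Gria3), -0.18 (Grik3), -0.21 (Grm4) and -0.22 (Shank1). With all arrays they were -0.32, -0.20, -0.21 and -0.21. The count was also 0 with no signal filter, 1 without Ptbp2 KO 3 and wild type 3 together, and 6 with quantile or cyclic loess normalization. It was 5 with array weights (3 of them lower) and 5 with the mean of the probe sets (4 of them lower). Shares of all genes at this threshold are not given for these settings. At a limma adjusted p of 0.05, all-gene calls numbered 15 in the fit described first. They numbered 7 with no signal filter and 9 without Ptbp2 KO 3 and wild type 3. With quantile and cyclic loess normalization they were 24 and 22, with array weights 71, and with the mean of the probe sets 37. In the fit described first, the smallest adjusted p among the members was 0.72. A missed threshold does not show equal levels, but the intervals bound the differences. The 95% interval of every tested member, taken gene by gene, lay between 0.666-fold (Gria3, lower end) and 1.29-fold (Baiap2, upper end) of wild type on the scale of the deposited signals.

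The small differences leaned to one side. Of the 33 members, 20 lay below wild type and 13 above (60.6% below, against 49.0% of all genes tested). Their median log2 difference was -0.063, against 0.0027 over all genes. This lean moved with single arrays. The median deviation of the members from their own means was 0.037, -0.11, -0.052 and -0.0043 on the Ptbp2 KO arrays, against 0.086, -0.021, 0.062 and 0.022 on the wild type arrays. The groups overlapped, with Ptbp2 KO 1 above 2 wild type arrays. Over all genes tested, the median deviation was 0.039, -0.027, -0.0067 and 0.014 on the Ptbp2 KO arrays. On the wild type arrays it was 0.092, -0.029, -0.083 and 0.029. With array weights the median difference of the members was -0.0040, against -0.0092 over all genes. It was -0.036 without Ptbp2 KO 2 (all genes 0.014), -0.039 without Ptbp2 KO 3 (all genes 0.0089) and -0.033 without wild type 3 (all genes -0.027). With wild type 3 and Ptbp2 KO 3 both left out, it was -0.039, against -0.023 over all genes. In tissue RNA of this kind, fewer cells of a type and less RNA per cell cannot be told apart.

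**Figure D1:**
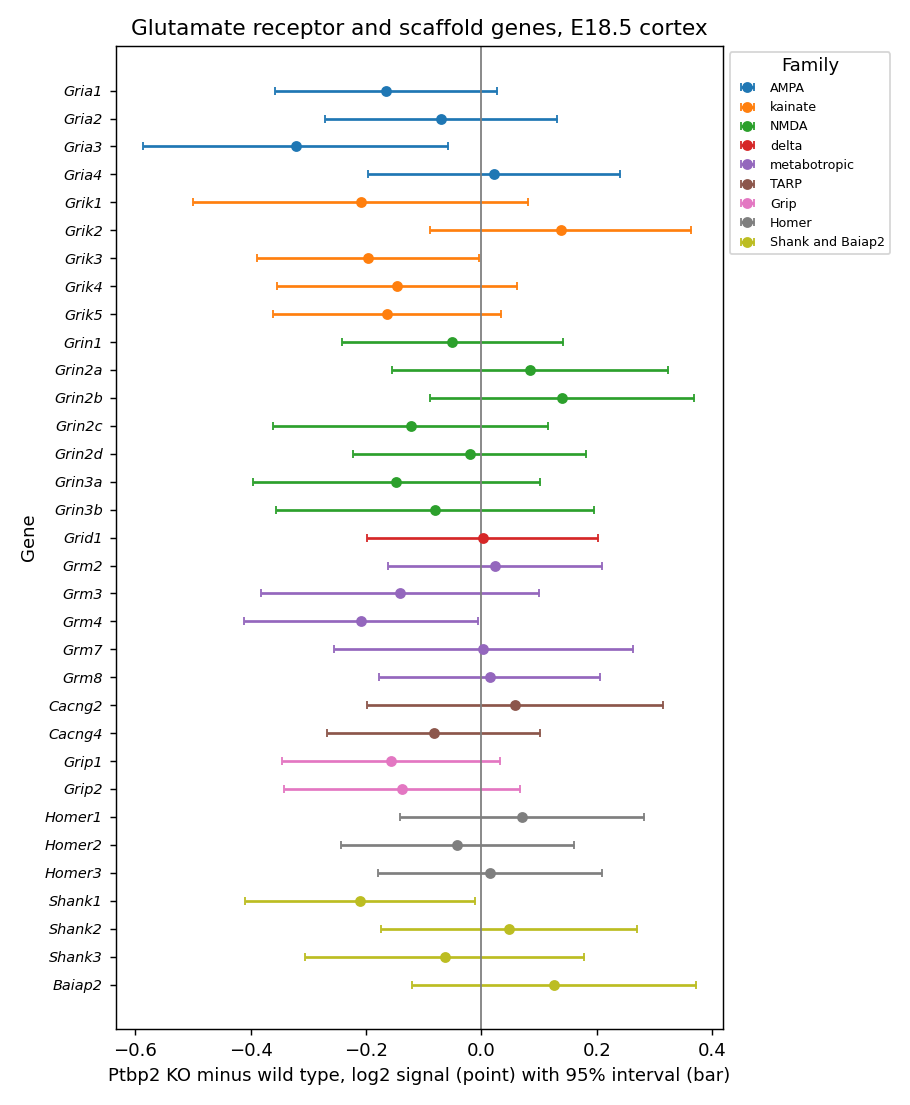
Difference in gene level, Ptbp2 KO minus wild type in log2 signal (horizontal axis), for the 33 tested genes in rows, coloured by family; bars are 95% limma intervals from 4 Ptbp2 KO and 4 wild type arrays. Gria3 at -0.32 lies farthest to the left and Grin2b at 0.14 farthest to the right, and only the intervals of Gria3, Grik3, Grm4 and Shank1 do not cross 0.

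Among the AMPA receptor genes, Gria3 and Gria1 were the lowest relative to wild type. Gria3, which encodes the pore subunit GluA3, had log2 levels of 9.66, 9.69, 9.32 and 9.57 in Ptbp2 KO cortex, against 10.23, 9.91, 9.68 and 9.72 in wild type cortex. The groups overlapped only through Ptbp2 KO 2, which lay just above wild type 3. The difference was -0.32 (SE 0.12, limma adjusted p = 0.72; two-sided exact permutation p = 0.057). It depended on how the gene was summarised: it was -0.11 with the mean of the 26 probe sets in place of their median and -0.12 with the signal filter at the 75th percentile, and it was -0.21 without wild type 1.

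Gria1, the gene of the GluA1 subunit, was the only member whose groups did not overlap, as was found for 3.65% of all genes (1.97% on the lower side). It is described here because of those values and lies outside the rule for detailed genes. Its log2 levels were 10.80, 10.78, 10.61 and 10.72 in Ptbp2 KO cortex, against 11.01, 10.82, 10.91 and 10.83 in wild type cortex, with Ptbp2 KO 1 only just under wild type 2. The difference was -0.16 (SE 0.090, limma adjusted p = 0.83). The two-sided exact permutation p of 0.029 is the smallest that 4 against 4 arrays allow. Any gene whose groups do not overlap has it, so this p adds nothing to the reason Gria1 was described. All 24 of its probe sets lay below wild type. Gria2, whose subunit limits calcium entry, had a log2 difference of -0.069, and Gria4 one of 0.022. Both had overlapping groups, and their 95% intervals were -0.27 to 0.13 and -0.20 to 0.24.

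The kainate receptor genes lay below wild type in 4 of 5 cases, with none past the threshold. Grik3, a subunit of low-affinity kainate receptors, had log2 levels of 9.68, 9.82, 9.64 and 9.58 in Ptbp2 KO cortex, against 9.96, 9.80, 9.92 and 9.82 in wild type cortex. Only Ptbp2 KO 2 reached the wild type range, and all 21 probe sets of Grik3 lay below wild type. Its difference was -0.20 (SE 0.091, limma adjusted p = 0.76; two-sided exact permutation p = 0.086). Grik1 (-0.21), Grik5 (-0.16) and Grik4 (-0.15) gave similar values with overlapping groups. Grik1 was -0.088 without Ptbp2 KO 3, -0.10 without wild type 1 and -0.067 when its probe sets were averaged, and Grik4 was -0.086 without wild type 1 and -0.020 when averaged. Of the 20 probe sets of Grik5, a high-affinity subunit, 19 lay below wild type, but of the 21 probe sets of Grik4 only 10 did. Grik2 lay above wild type at 0.14, but its value was -0.026 when the probe sets were averaged. The family median was -0.16, and between -0.20 and -0.067 over all settings tried.

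**Figure D2:**
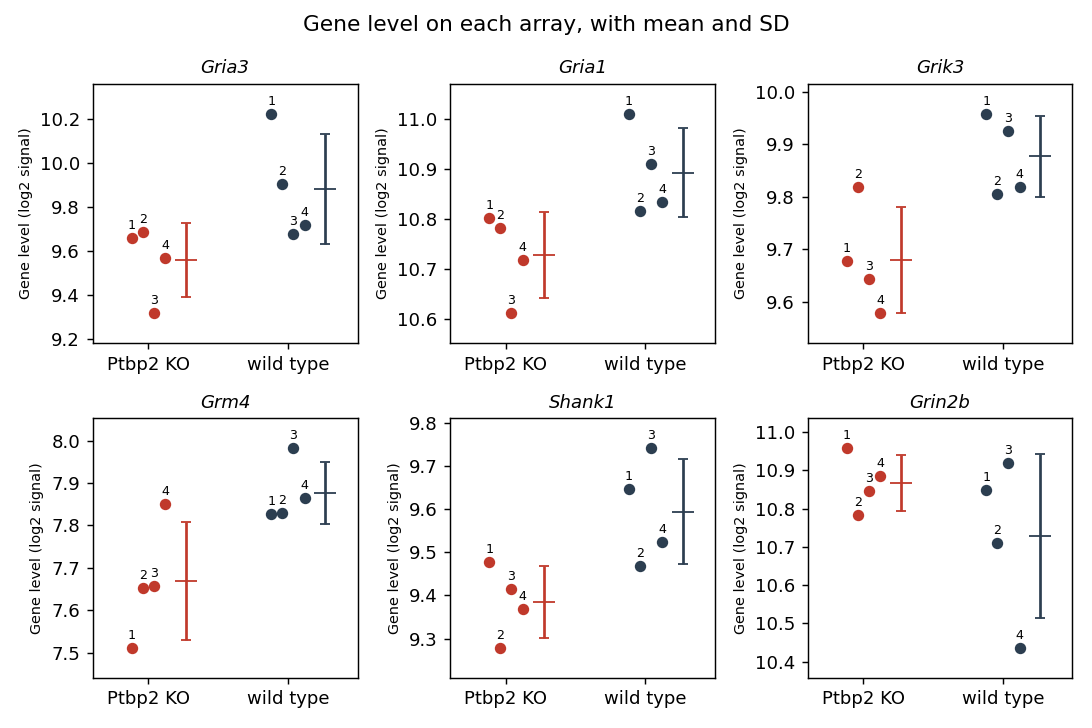
Gene level in log2 signal (vertical axis, a scale of its own in each panel) on every array for 6 genes, with Ptbp2 KO on the left and wild type on the right; numbered points are replicates, and bars give the mean and SD of 4 arrays. Gria1 is the one panel where the groups do not overlap, and in Grin2b the wild type spread comes mainly from replicate 4 at 10.44.

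Of the 7 NMDA receptor genes, 5 lay below wild type and 2 above, with none past the threshold, and the family median of -0.050 turned to 0.024 with array weights. Grin2b, the subunit that prevails before birth in the cortex, had log2 levels of 10.96, 10.78, 10.85 and 10.89 in Ptbp2 KO cortex, against 10.85, 10.71, 10.92 and 10.44 in wild type cortex. The wild type range enclosed 3 of the 4 Ptbp2 KO values. The difference was 0.14 (SE 0.11, limma adjusted p = 0.90), and it was 0.042 without wild type 4, 0.33 with array weights and 0.21 without Ptbp2 KO 3 and wild type 3. All 21 Grin2b probe sets nevertheless lay above wild type. Grin2a, the subunit that gains weight after birth, had a difference of 0.085 with a 95% interval of -0.15 to 0.32. Grin1, the subunit that every NMDA receptor needs, had one of -0.050 with an interval of -0.24 to 0.14. Grin3a (-0.15), Grin2c (-0.12), Grin3b (-0.080) and Grin2d (-0.020) lay below wild type, also without a call. Grin3a was -0.029 without wild type 1 and -0.0040 with array weights. Grin2c was -0.023 without Ptbp2 KO 3 and 0.038 with no signal filter. Grin3b was between -0.17 and -0.0043 with 1 array left out, lowest in size without wild type 2. For Grin2c and Grin3b only 8 of 24 and 6 of 15 named probe sets passed the signal filter, so these values rest on the brighter part of each gene.

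Among the metabotropic receptor genes, Grm4 was the lowest relative to wild type. Grm4, a presynaptic receptor coupled to inhibition of adenylyl cyclase, had log2 levels of 7.51, 7.65, 7.66 and 7.85 in Ptbp2 KO cortex, against 7.83, 7.83, 7.98 and 7.87 in wild type cortex. Only Ptbp2 KO 4 lay within the wild type range. The difference was -0.21 (SE 0.095, limma adjusted p = 0.76; two-sided exact permutation p = 0.086), and 10 of its 12 retained probe sets lay below wild type. Grm3, a receptor of glia and neurons, had a difference of -0.14, where Ptbp2 KO 3 stood at 10.18 and the other 3 Ptbp2 KO arrays between 10.47 and 10.53. It was -0.059 without Ptbp2 KO 3, -0.044 without wild type 1 and 0.023 with array weights. Grm2 (0.024), Grm8 (0.014) and Grm7 (0.0032) differed little, and the signs of Grm7 and Grm8 turned under quantile and cyclic loess normalization. Grm5, a postsynaptic receptor that binds Homer, had 1 probe set above the filter, at 8.07 ± 0.11 in Ptbp2 KO cortex and 8.10 ± 0.28 in wild type cortex (SD, n = 4 each; limma adjusted p = 0.97). The delta receptor gene Grid1 had log2 levels of 9.41, 9.10, 9.34 and 9.34 in Ptbp2 KO cortex, against 9.39, 9.27, 9.29 and 9.25 in wild type cortex. Its groups overlapped, with a difference of 0.0021 whose sign turned under quantile and cyclic loess normalization (95% interval -0.20 to 0.20).

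Of the TARP genes, Cacng4 had log2 levels of 10.94, 10.89, 11.04 and 11.00 in Ptbp2 KO cortex, against 10.96, 11.04, 11.11 and 11.09 in wild type cortex. The groups overlapped and the difference was small (-0.083, SE 0.087, limma adjusted p = 0.94), with all 7 probe sets below wild type. Cacng2, which encodes stargazin, had a difference of 0.059. The probe sets of Cacng3 both lay below wild type, at -0.21 (probe set 4404218, limma adjusted p = 0.83) and -0.16 (probe set 4917236, limma adjusted p = 0.88).

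Of the 9 scaffold genes, 5 lay below wild type and 4 above. Shank1, a scaffold deep in the postsynaptic density, had log2 levels of 9.48, 9.28, 9.41 and 9.37 in Ptbp2 KO cortex, against 9.65, 9.47, 9.74 and 9.52 in wild type cortex. Ptbp2 KO 1 lay just above wild type 2, and the other values did not overlap. The difference was -0.21 (SE 0.094, limma adjusted p = 0.76; two-sided exact permutation p = 0.057), with 34 of 44 probe sets below wild type. It was -0.055 with no signal filter, -0.12 with the mean of the probe sets and -0.12 without wild type 3 and Ptbp2 KO 3. Shank2 (0.048) and Shank3 (-0.063) had intervals of -0.17 to 0.27 and -0.31 to 0.18. The adaptor gene Baiap2, whose product joins membranes to actin, stood at 0.13, at 0.037 without wild type 3 and at -0.064 with the filter at the 75th percentile.

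Grip1, a PDZ protein that binds AMPA receptor tails, had log2 levels of 9.08, 8.97, 9.07 and 9.03 in Ptbp2 KO cortex, against 9.31, 9.08, 9.23 and 9.16 in wild type cortex. Only Ptbp2 KO 1 lay above the lowest wild type array, and only just. The difference was -0.16 (SE 0.089, limma adjusted p = 0.83; two-sided exact permutation p = 0.057), and 31 of 34 probe sets lay below wild type. Its relative Grip2 stood at -0.14, at -0.075 without Ptbp2 KO 2 and at 0.067 with the filter at the 75th percentile. Homer1, which links group I metabotropic receptors to Shank, had log2 levels of 9.54, 9.54, 9.59 and 9.53 in Ptbp2 KO cortex, against 9.74, 9.45, 9.33 and 9.41 in wild type cortex. The Ptbp2 KO arrays were close together inside the wild type range (difference 0.070, limma adjusted p = 0.96). Homer2 (-0.042) and Homer3 (0.015) also lay near wild type, although 9 of 10 Homer3 probe sets were above it, and the sign of Homer3 turned under quantile and cyclic loess normalization.

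**Figure D3:**
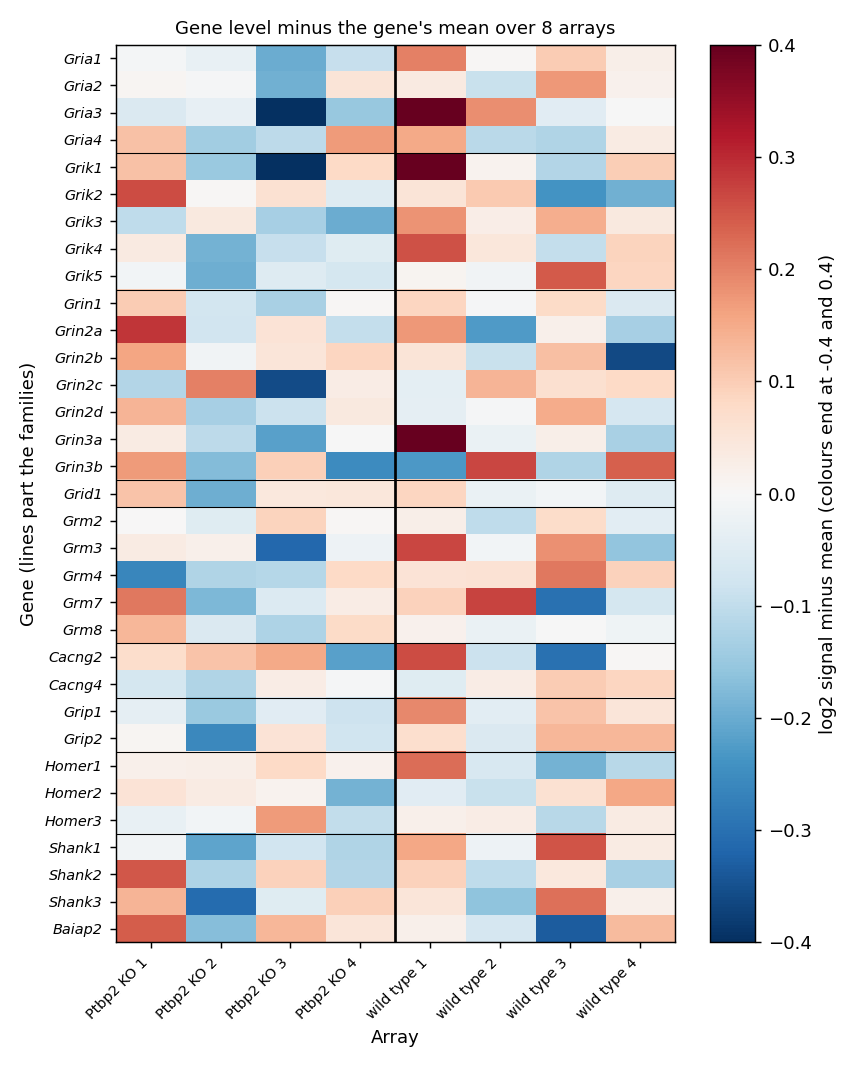
Level of each tested gene (rows, by family) on each array (columns, Ptbp2 KO left of the black line and wild type right of it) minus that gene's mean over 8 arrays, in log2 signal, red above and blue below. Wild type 1 has 28 of 33 genes above their own mean and Ptbp2 KO 2 has 7, while Ptbp2 KO 1 has 23, so the arrays of a group do not look alike. Over all genes tested, the median deviation was 0.092 on wild type 1, -0.027 on Ptbp2 KO 2 and 0.039 on Ptbp2 KO 1.

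Probe sets of one gene are parts of the same transcripts and not replicates, but their direction describes how evenly a gene's signal shifted. In 4 of 33 members, Gria1, Grik3, Grin2b and Cacng4, every retained probe set lay on one side of wild type, as held for 7.33% of all genes tested. Of the 676 member probe sets, 410 lay below wild type (60.7%). In level, 0 of 676 passed a limma adjusted p of 0.05, against 0.0921% of all retained probe sets, and 28 (4.14%) had an unadjusted p under 0.05, against 7.44%. Groups did not overlap in 21 (3.11%, against 4.24% of all probe sets), 17 on the lower side (2.51%, against 1.51% of all) and 4 on the higher (0.592%, against 2.73% of all). Of those 17, Gria1 held 5 and Grip1 held 4.

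**Figure D4:**
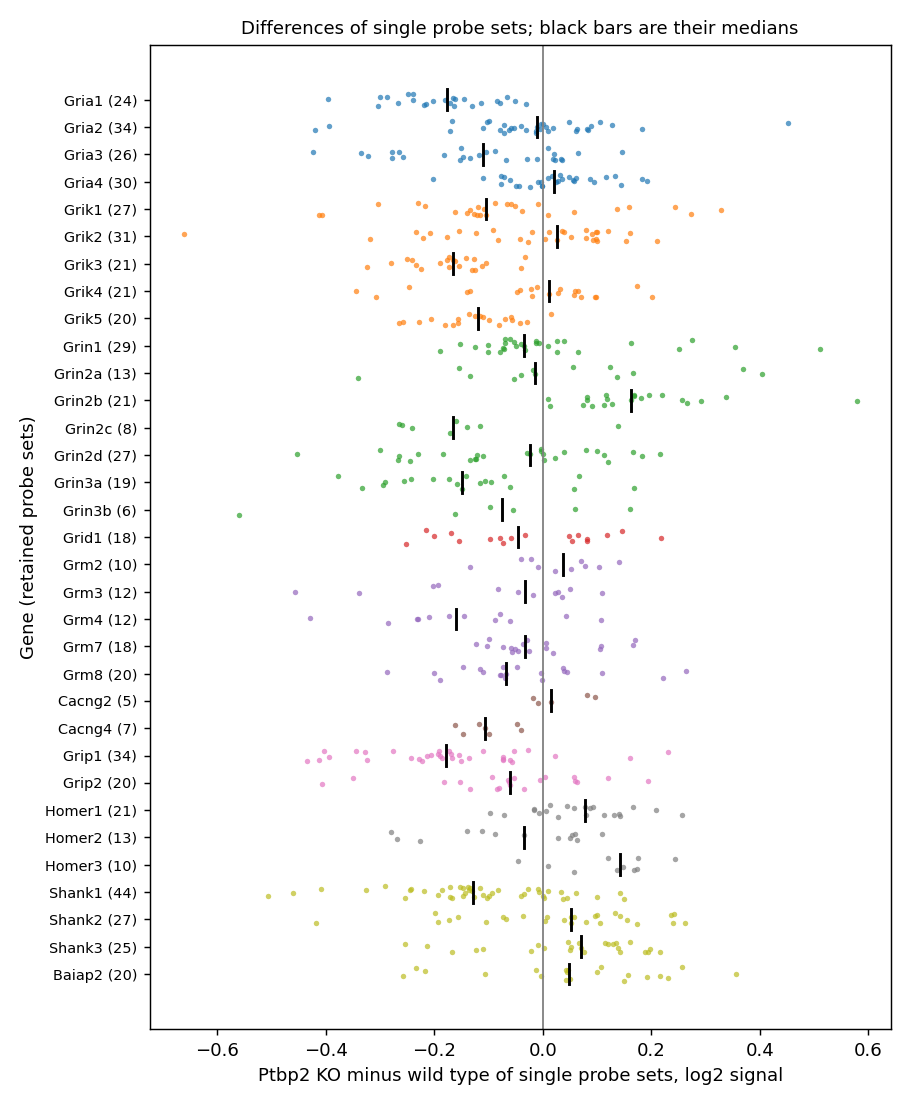
Difference of every retained probe set, Ptbp2 KO minus wild type in log2 signal (horizontal axis), for each tested gene (rows, with the number of probe sets in brackets); black bars are medians over the probe sets. Points of Gria1 and Grik3 all lie left of 0 and those of Grin2b all lie right of it, while most other genes straddle 0.

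Single probe sets were also set against the rest of their gene (usage), which is where a changed exon would show. The test was limma diffSplice, and the alternative was a splicing index, the probe set minus the gene level. With diffSplice, 0 of 673 member probe sets passed, against 0.212% of all probe sets tested. Before adjustment, 25 had a diffSplice p under 0.05 (3.71%, against 4.57% of all), 10 raised and 15 lowered. The splicing index also called 0, against 0.00869% of all, with 37 at an unadjusted p under 0.05 (5.50%, against 5.27%). Signals relative to the gene did not overlap between the groups in 21 of 673 member probe sets (3.12%, against 2.92% of all). By the Simes p per gene 0 of 33 passed, against 2.46% of all genes. Before adjustment, Grin1, Grin3b and Grik2 had a Simes p under 0.05, 3 of 33 genes (9.09%, against 11.4% of all genes).

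By diffSplice, Grin1 was the member closest to the usage threshold. Its transcripts carry known cassette exons in the regions of the amino and carboxyl termini. Probe set 4423042 of Grin1 had log2 signals of 8.66, 8.24, 8.61 and 8.67 in Ptbp2 KO cortex, against 7.82, 8.14, 7.99 and 8.17 in wild type cortex. All 4 Ptbp2 KO values lay above all 4 wild type values, while the gene levels overlapped. The signal relative to the gene was -0.76, -1.01, -0.58 and -0.66 in Ptbp2 KO cortex, against -1.59, -1.17, -1.40 and -1.09 in wild type cortex, and here too the groups did not overlap, as held for 2.92% of all probe sets tested. The diffSplice deviation was 0.51 (limma diffSplice adjusted p = 0.075), and the splicing index difference was 0.56 (limma adjusted p = 0.88; 95% interval 0.26 to 0.87). Without Ptbp2 KO 2 the deviation was 0.60 and passed diffSplice (adjusted p = 0.027). It also passed under array weights (0.44, adjusted p = 0.020), where 71 of all genes passed in level, against 15 without weights. With each of the other 7 arrays left out in turn it did not pass, with the highest adjusted p of 0.39 without wild type 1 (0.43), and it did not pass without Ptbp2 KO 3 and wild type 3 together (0.46, adjusted p = 0.28). The place of this probe set within Grin1 was not known here.

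Probe sets of other receptors with the smallest diffSplice p were less regular. Probe set 5459124 of Gria2, whose transcripts carry the alternative flip and flop exons as in all AMPA receptor genes, had signals relative to the gene of -3.17, -3.74, -2.88 and -3.67 in Ptbp2 KO cortex, against -3.84, -3.77, -3.87 and -4.07 in wild type cortex. The groups did not overlap, but Ptbp2 KO 2 and wild type 2 nearly met. The deviation was 0.48 (limma diffSplice adjusted p = 0.32), and with array weights it passed (0.57, adjusted p = 0.0028). The share of all probe sets that passed with array weights is not given. Probe set 4815974 of Grik2 had log2 signals of 7.04, 7.22, 4.99 and 7.81 in Ptbp2 KO cortex, against 8.25, 7.11, 7.19 and 7.15 in wild type cortex. Its deviation of -0.66 (limma diffSplice adjusted p = 0.17) came from 2 arrays, the low Ptbp2 KO 3 and the high wild type 1: it was -0.089 without Ptbp2 KO 3. It passed without Ptbp2 KO 4 (-1.01, adjusted p = 0.0016) and without Ptbp2 KO 2 (-0.82, adjusted p = 0.047).

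The remaining probe sets of this kind had diffSplice deviations between -0.54 and 0.43. They were Grin3b 5524868 (-0.54), Shank2 5187222 (-0.46), Grip1 5181071 (0.41), Grin2b 4548868 (0.43), Grin2d 5187292 (-0.41), Shank1 4944487 (-0.40) and Grik4 4380354 (-0.34), with limma diffSplice adjusted p between 0.41 and 0.88. Of these 7, only Grip1 5181071 had relative signals that did not overlap between the groups.

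**Figure D5:**
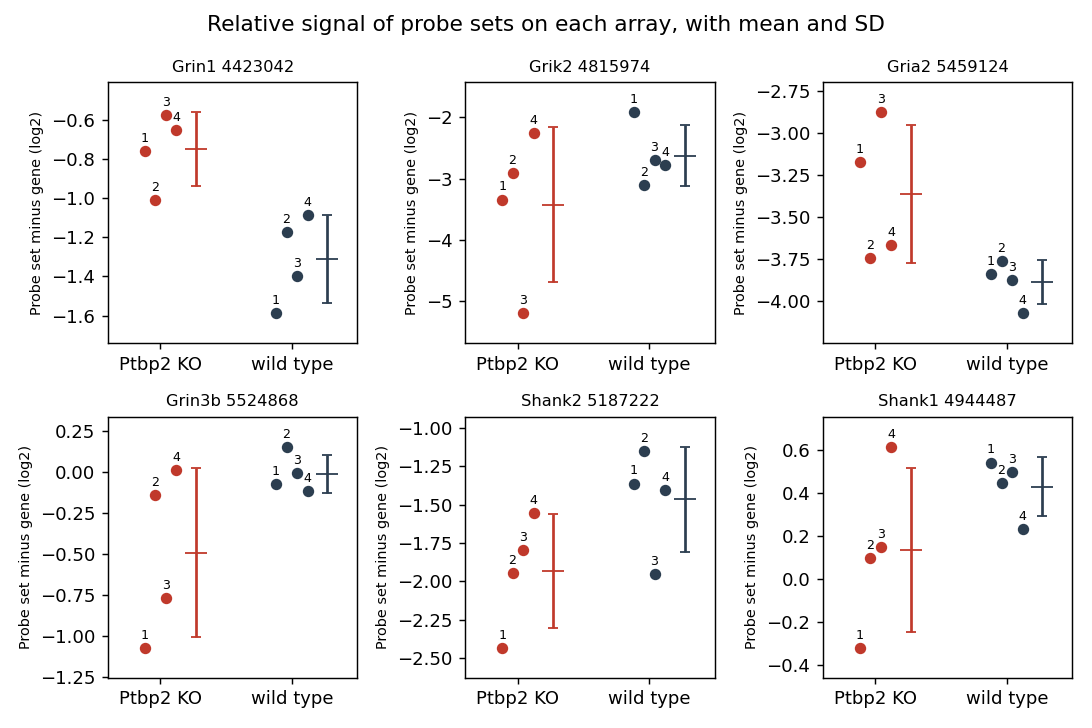
Probe set signal minus gene level in log2 (vertical axis, a scale of its own in each panel) on every array, with Ptbp2 KO on the left and wild type on the right, for the 6 member genes with the smallest diffSplice p; numbered points are replicates, and bars give the mean and SD of 4 arrays. Grin1 4423042 and Gria2 5459124 do not overlap between the groups, and in Grik2 4815974 a single point, Ptbp2 KO 3 at -5.19, lies far below the rest.

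Other genes of the same receptors were taken from a list of 36 further auxiliary subunits, trafficking factors and scaffolds, of which 28 could be tested. Again 0 passed, with 20 below and 8 above wild type, where 49.0% of all genes lay below. The median log2 difference was -0.098, against 0.0027 over all genes. The mean level of the list was 9.18 to 9.27 in Ptbp2 KO cortex and 9.25 to 9.40 in wild type cortex, so the groups overlapped. Before adjustment, 6 of the 28 had p under 0.05, all on the lower side, where 3.79% of all genes met that threshold. The smallest p belonged to Neto1, an auxiliary subunit of kainate receptors (-0.31, limma adjusted p = 0.47), and to Akap5, which anchors kinases and phosphatases near AMPA receptors (-0.31, limma adjusted p = 0.61).

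Markers of striatal neurons, which a cortical dissection could include, lay below wild type as well. All 8 striatal neuron genes tested lay below wild type, 6 of them at an unadjusted p under 0.05 and 0 after adjustment, with Tac1 (-0.75, limma adjusted p = 0.095) and Penk (-0.47, limma adjusted p = 0.18) the lowest. The mean level of the list was 8.38 to 8.78 in Ptbp2 KO cortex and 8.86 to 9.15 in wild type cortex, so the groups did not overlap. Drd1, 1 of the 8, had a mean log2 level of 7.77 in Ptbp2 KO cortex and 8.05 in wild type cortex. Probe sets above the filter were required of every gene tested, so signal above it is no finding about these 8. Interneuron genes lay below wild type in 8 of 9, with mean levels of 9.68 to 9.95 in Ptbp2 KO cortex and 9.89 to 10.13 in wild type cortex. Of the 8 glutamatergic cortical neuron genes, 3 lay below wild type and 5 above, with a median of 0.043. They ran from Slc17a7, a vesicular glutamate transporter (-0.49, limma adjusted p = 0.36), to Fezf2, a transcription factor of deep-layer neurons (0.23, limma adjusted p = 0.79). The part of these cells in the lower values of Gria3, Gria1, Grik3, Grm4 and Shank1 was not tested.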

How the data were processed

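RNA of 8 samples of embryonic cortex was measured on Affymetrix mouse exon arrays. Per the labels' protocols, RNA was extracted with Trizol and labelled with the WT Sense Target assay. The table deposited by the authors holds 1 log2 signal per probe set and array. The submitters' processing notes name Affymetrix Expression Console, RMA and mm9; no versions or roles were found. RMA normalizes arrays to each other, which removes differences in total RNA and compresses low signals. Precision is limited by the number of arrays.

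Gene symbols came from the platform annotation, and 3919 of 21634 symbols were updated through RefSeq synonyms (GRCm38.p6, used for names only). Positions of probe sets were not used here. Probe sets with a mean of at least 6.84 were retained (312767 of 625534). Levels were compared with lmFit and eBayes, usage with diffSplice, all in limma 3.58.1 under R 4.3.3, with no covariate, fitted on the whole table and adjusted by Benjamini-Hochberg over all genes or probe sets, threshold 0.05. Ptbp2 was left out of the usage test. The fits were tested on simulated arrays. Among the alternatives were fits without each array in turn, with the replicate number as block, and with other filters, normalizations, variance models, gene summaries and thresholds, array weights and the Xist level; leaving out wild type 3 and Ptbp2 KO 3 together was added after the data were seen.

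The genes, lists and tests were chosen with earlier results of these data known. Values on every array are given for Ptbp2, for members with an unadjusted p under 0.05 and for the member with the smallest p of each family; for usage, for members past the threshold, and otherwise the 10 genes with the smallest diffSplice p are named, with 1 probe set each. Gria1 was named after its values were seen. Lists of marker genes for astrocytes, the oligodendrocyte lineage, microglia, choroid plexus, erythroid, vascular and meningeal cells and progenitors were also compared.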

Additional observations from a re-analysis of the deposited data

Results flagged for a closer look

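Within groups of 4 arrays, 8 of 106 sets of values held an array far from the other 3 by Dixon's test at 95%; chance gives about 1 in 20. In Ptbp2 KO cortex these were Grm3 on array 3 (10.18, others 10.47 to 10.53), Homer1 on array 3 (9.59, others 9.53 to 9.54), Homer2 on array 4 (8.79, others up to 9.04), the Grin1 probe set 4423042 on array 2 (8.24, others 8.61 to 8.67), the Grin2b probe set 4548868 on array 1 (7.19, others 7.80 to 7.89) and the median deviation of the AMPA receptor genes on array 3 (-0.20, others -0.031 to -0.0012). In wild type cortex they were Homer3 on array 3 (8.45, others 8.58 to 8.60) and the Grik2 probe set 4815974 on array 1 (8.25, others 7.11 to 7.19). For Homer1 the gap is large only beside a very narrow range.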

How the results depend on the processing

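The count of member genes changed in level and that of member probe sets changed in level stayed at 0 in every setting tried. The median log2 difference over members was -0.083 to -0.033 with 1 array left out and -0.0040 with array weights. Over all genes it was -0.027 to 0.033 with 1 array left out and -0.0092 with array weights. The count of member probe sets with differential usage was 0 to 2 with 1 array left out, and the count of genes by Simes p 0 to 1. Usage calls numbered 4 with array weights (Grin1, Gria2, Grip1 and Baiap2). By Simes p 3 genes passed there, Grin1, Gria2 and Grin3b. Shares of all probe sets and genes with a usage call are not given for these settings. In level, the fit with array weights called 71 of 12960 genes, against 15 without weights. Usage calls numbered 1 with no filter (Homer3; also 1 gene) and 1 at an adjusted p of 0.10 (Grin1). With the replicate number as a block, 1 probe set passed, Grin1 4423042 (deviation 0.51, adjusted p = 0.027). In that fit 5 members had an unadjusted limma p under 0.05 in level, all lower in Ptbp2 KO cortex. The share of all genes at that threshold is not given for the block fit. By limma adjusted p under 0.05, 22 of 12960 genes passed in level there, against 15 without the block. The labels state no pairing, and levels of arrays with the same number deviated together in 2 of 4 pairs (correlations over genes 0.25, -0.0039, 0.033 and 0.17). Array weights ranged from 0.364 for wild type 3 to 3.65 for wild type 4. Members below wild type numbered 24 of 33 with quantile or cyclic loess normalization. The median over all genes was -0.015 and -0.021 there, against 0.0027 with the deposited values. With 1 array left out, 19 to 25 members lay below wild type. The 25 came without Ptbp2 KO 1 (all genes -0.0076) and without wild type 3 (all genes -0.027).

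Signs turned for the genes below, with no call in any setting. With the filter at the 75th percentile the differences were -0.0045 (Grid1), -0.044 (Grik2), 0.0039 (Grin1), 0.067 (Grip2), 0.10 (Shank3) and -0.064 (Baiap2); with no filter 0.038 (Grin2c), -0.042 (Grm7) and -0.096 (Grm8). With quantile normalization they were -0.0073 (Grid1), -0.011 (Grm7), -0.019 (Grm8) and -0.010 (Homer3), and with cyclic loess -0.014, -0.019, -0.025 and -0.021. With the Xist level as a covariate they were -0.0012 (Grid1) and -0.0051 (Grm7). With the mean of the probe sets they were -0.029 (Grid1), -0.026 (Grik2), 0.014 (Grin1), -0.0065 (Grm7), -0.037 (Grm8) and 0.048 (Shank3). With array weights they were 0.024 (Grin1), 0.060 (Grin2d), 0.023 (Grm3), -0.0019 (Cacng2) and -0.037 (Homer3). Without wild type 3 and Ptbp2 KO 3 they were -0.015 (Grid1), 0.030 (Gria2), 0.0024 (Grin1), 0.050 (Grin2d), -0.077 (Grm7), -0.072 (Cacng2), -0.073 (Homer3) and 0.0046 (Shank3). Ranges with 1 array left out crossed 0 for Gria4 (-0.031 to 0.076), Grin2d (-0.070 to 0.025), Grid1 (-0.035 to 0.068), Grm2 (-0.0058 to 0.052), Grm7 (-0.096 to 0.093), Grm8 (-0.029 to 0.058), Cacng2 (-0.031 to 0.16), Homer2 (-0.078 to 0.014), Homer3 (-0.039 to 0.050), Shank2 (-0.026 to 0.098) and Shank3 (-0.13 to 0.029). The cause of these turns was not tested. Genes under 4 retained probe sets and signals below the filter could not be compared in level.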

Other observations

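The other marker lists give the tissue background of the glutamate receptor values. Microglial genes lay above wild type in 3 of 3 tested (of 7 listed), led by the lysosomal gene Cd68 (0.35, limma adjusted p = 0.42), with mean levels of 7.81 to 7.87 in Ptbp2 KO cortex and 7.61 to 7.78 in wild type cortex, which did not overlap. Oligodendrocyte lineage genes lay below wild type in 6 of 6 and choroid plexus genes in 6 of 6, where Ptbp2 KO 2 stood at 7.37 and the other Ptbp2 KO arrays between 8.60 and 9.03. Astrocyte genes lay below wild type in 5 of 6. In mean level the groups overlapped for the oligodendrocyte lineage, choroid plexus and astrocyte lists. They also overlapped for progenitor genes (4 of 6 above), vascular and meningeal genes (3 of 5 above) and erythroid genes (1 of 2 above). None of these genes passed the threshold with limma; at an unadjusted p under 0.05 there were 1 astrocyte, 1 oligodendrocyte and 1 choroid plexus gene on the lower side and 1 microglial gene on the higher.

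Homer3 probe set 5337860, below the signal filter in both groups, had log2 signals of 3.71 to 5.64 in Ptbp2 KO cortex and 5.47 to 6.01 in wild type cortex, and its deviation of -1.22 passed diffSplice only where no filter on low signals was used.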
